A study of Mus musculus with 6 samples.

Results

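The transcription factors that build and maintain photoreceptors were followed in female DBA/2J mice, whose whole retinas were assayed. These inbred animals develop glaucoma as they grow older. Retinas of 8-month animals with elevated intraocular pressure were set against retinas of 3-month animals with normal pressure. There were 3 retinas of each age, each from another animal and on its own Affymetrix array. The final pressure was 27.4 ± 2.67 mmHg in the 8-month eyes and 17.5 ± 1.99 mmHg in the 3-month eyes (SD, n = 3 each), so age and pressure differed together and cannot be told apart. The 8-month eyes were 1 left (retina 1) and 2 right, and all 3-month eyes were left.

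The 10 factors were Crx, Nrl, Nr2e3, Otx2, Rxrg, Thrb, Rorb, Neurod1, Esrrb and Mef2c, chosen by name, out of 18193 genes that the platform annotation names singly. A probe set is a group of short probes that reports 1 transcript region, and all probe sets whose only gene symbol was a member were taken. They were 19 probe sets of 9 genes, and no probe set matched Nr2e3, which was not analysed here. A probe set was tested where at least 3 of its 6 values reached 4 on the log2 scale, whatever the age. That left 15 probe sets of 7 genes, since Rxrg, Thrb, 1 probe set of Rorb and 1 of Esrrb lay below it.

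Photoreceptor fate is set by a cascade of DNA-binding proteins. The homeodomain factor OTX2 commits precursors to the photoreceptor lineage and acts upstream of its relative CRX, which switches on most rod and cone genes. The leucine zipper factor NRL directs precursors to the rod fate, together with the orphan nuclear receptors RORB, which acts upstream of it, and NR2E3, which acts below it and represses cone genes in rods. The thyroid hormone receptor THRB and its partner RXRG set the opsin choice of cones. NEUROD1, a basic helix-loop-helix factor, and ESRRB, an estrogen-related receptor, are needed for photoreceptor survival in mice. MEF2C is a MADS-box factor that, besides photoreceptors, is also active in muscle, other neurons and microglia.

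Promoter sequences of Crx, Otx2 and Nrl are shown because these factors regulate each other's genes. Each is the 250 bases before a RefSeq transcription start (GRCm38.p6, 5′ to 3′ on the gene's strand), and capitals mark the homeodomain core TAATCC or its reverse GGATTA. The Crx window lies at chr7:15879956-15880205 on the minus strand, the Otx2 window, 1 of 4 of that gene, at chr14:48665110-48665359 on the minus strand, and the Nrl window at chr14:55524253-55524502 on the minus strand.
Crx: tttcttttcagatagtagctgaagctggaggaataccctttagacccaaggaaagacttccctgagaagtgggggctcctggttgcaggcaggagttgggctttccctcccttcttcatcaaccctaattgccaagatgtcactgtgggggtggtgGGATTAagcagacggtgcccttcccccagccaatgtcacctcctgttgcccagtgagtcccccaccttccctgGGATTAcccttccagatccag
Otx2: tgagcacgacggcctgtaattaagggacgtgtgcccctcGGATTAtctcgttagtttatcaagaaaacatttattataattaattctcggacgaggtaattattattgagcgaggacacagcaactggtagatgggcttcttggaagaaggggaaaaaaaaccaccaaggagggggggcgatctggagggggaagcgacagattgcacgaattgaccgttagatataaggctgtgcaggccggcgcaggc
Nrl: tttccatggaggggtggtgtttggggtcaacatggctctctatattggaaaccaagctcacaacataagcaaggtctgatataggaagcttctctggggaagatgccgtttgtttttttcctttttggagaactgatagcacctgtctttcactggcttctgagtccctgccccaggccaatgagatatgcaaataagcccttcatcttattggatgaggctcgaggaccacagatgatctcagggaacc

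The Crx window holds the core at 2 places, beginning 94 and 21 bases before the start, and the Otx2 window holds it once, 211 bases before the start. The Otx2 window shown is the only 1 of that gene's 4 that holds the core, so it cannot be read against a share of single windows. Of 32851 mouse promoter windows of the same length, 6.25% hold the core on either strand and 0.295% hold it at 2 or more places. All 10 factors had at least 1 window, 19 in all, and the core occurred in 3 of them, those of Crx, Otx2 and Thrb. The NRL motif TGCTGA or its reverse TCAGCA occurred in 4 of the 19 windows, in Otx2, Rorb, Neurod1 and Mef2c, against 16.1% of all windows. The nuclear receptor motif AAGGTCA or its reverse TGACCTT occurred in 2, in Rxrg and Mef2c, against 4.08% of all windows. The Crx and Otx2 windows shown hold neither the NRL motif nor the nuclear receptor motif, and none of the 3 motifs occurred in the Nrl window.

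Transcripts of lens genes, mostly crystallins, set 2 retinas apart from the others. Averaged over 5 measured lens genes of 8, the log2 level reached 11.62 in 8-month retina 1, the remaining 8-month retinas reading 4.28 and 4.89, and it reached 12.53 in 3-month retina 3, the remaining 3-month retinas reading 7.01 and 5.12. Pairs of arrays correlated at 0.985 or more over all tested probe sets. Each member's difference without both of these crystallin-rich retinas is given beside it.

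No member passed the test over all probe sets. Limma, a linear model fitted to all 20973 tested probe sets with Benjamini-Hochberg adjustment, called 0 of the 15 member probe sets at an adjusted p of 0.05, and 1 probe set, or 0.00477%, in all. The unadjusted limma p was under 0.05 for 3 member probe sets, or 20.0%, against 14.9% of all probe sets. Of these, 1 of Mef2c was higher, where 4.63% of all were, and 1 each of Crx and Esrrb were lower at 8 months, where 10.3% of all were. Ages without overlap occurred in 4 of the 15, or 26.7%, against 21.8% of all, 2 of them higher and 2 lower at 8 months, where 6.89% and 14.9% of all were. On the deposited scale each of these shares differs from the background by about 1 probe set or less, but other scalings moved both. After median centring 7 of the 15 members, or 46.7%, had an unadjusted limma p under 0.05, against 15.0% of all. Of these members 5 were higher and 2 lower, where 10.2% and 4.77% of all were. The 5 were 4 probe sets of Mef2c, 3 of them with the same source record, and the brighter one of Rorb. After cyclic loess 5 of the 15, or 33.3%, reached that p, against 13.3% of all, and without 3-month retina 1 it was again 5, against 12.2% of all. The median log2 difference, 8 months minus 3 months, was 0.078 over the 15 and -0.041 over all tested probe sets. Of the 15, 9 were above 0 and 6 below, and 5 of the 9 were probe sets of Mef2c.

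**Figure D1:**
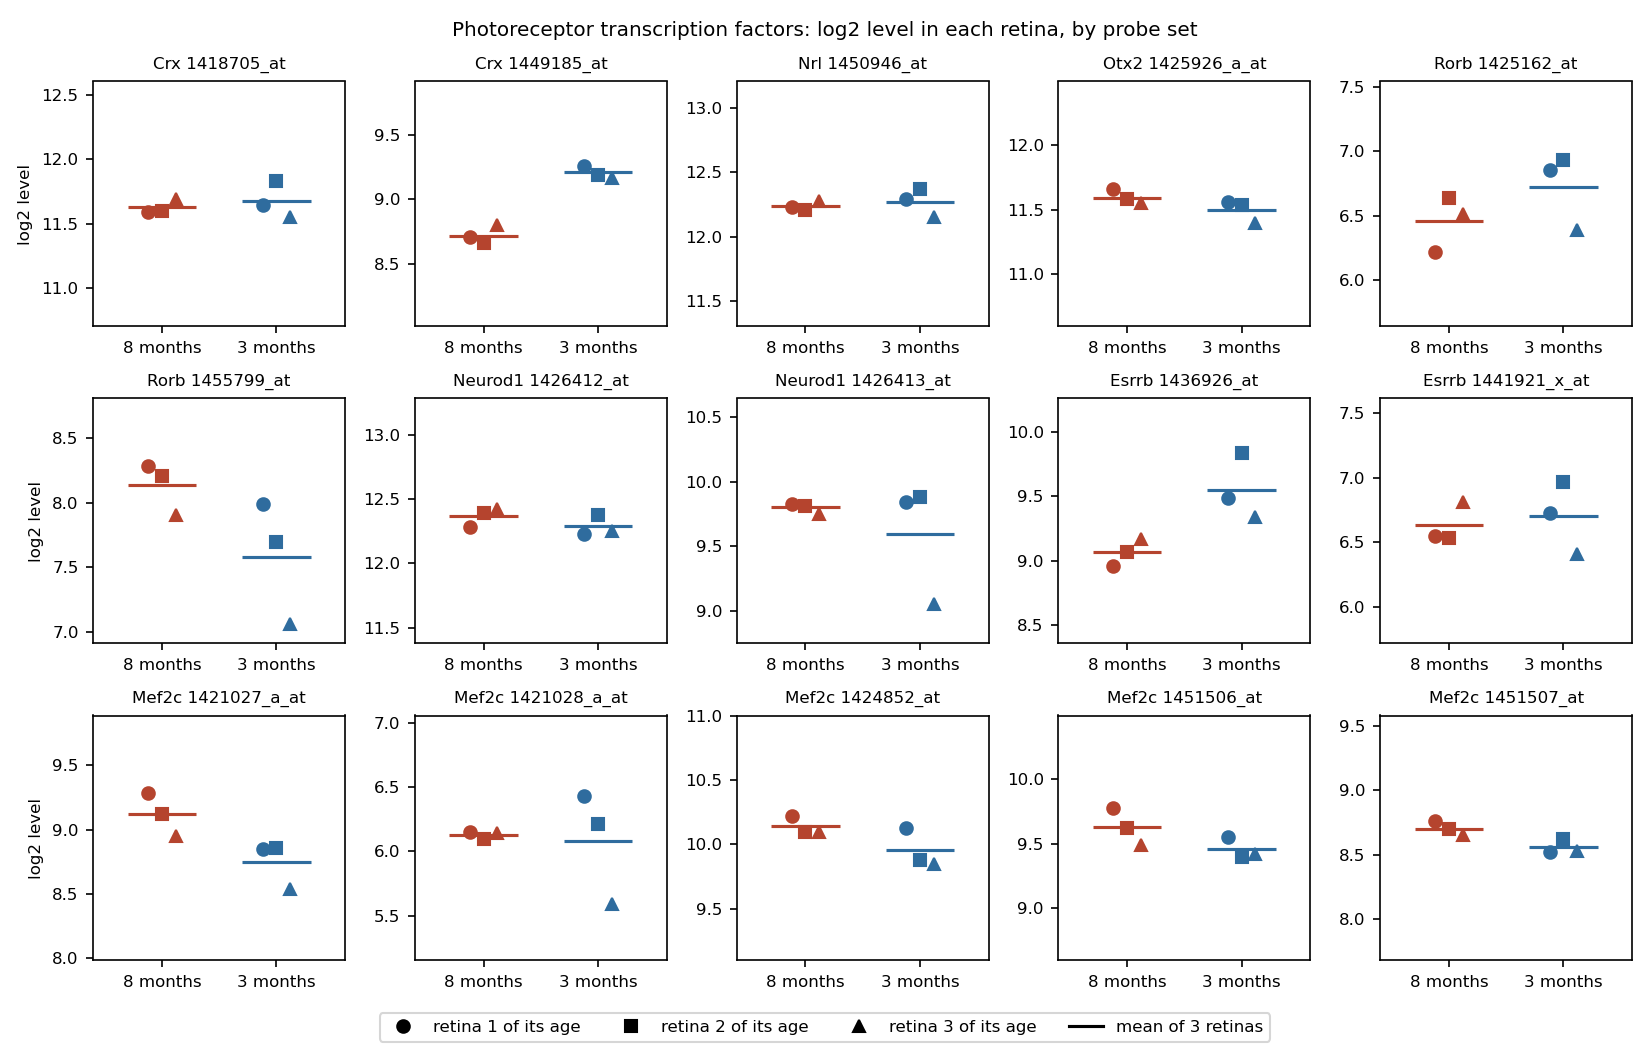
Log2 level of each tested member probe set (panels) in each retina at 8 and 3 months. Symbols mark the 3 retinas of an age, horizontal lines their mean, and every panel spans the same number of log2 units. In the Crx panel 1449185_at the 8-month retinas lie between 8.66 and 8.80, all below the 3-month retinas at 9.17 to 9.26, whereas in the panel 1418705_at the ages overlap.

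Crx, the central activator of rod and cone genes, gave different answers with its 2 probe sets. The dimmer one, 1449185_at, had log2 levels of 8.71, 8.66 and 8.80 in the 8-month retinas, against 9.26, 9.19 and 9.17 in the 3-month retinas. All older retinas lay below all younger ones, left eye included, and the levels within an age differed little, at 8.72 ± 0.07 and 9.21 ± 0.05 (SD, n = 3 each). This gave a log2 difference of -0.48 ± 0.08 (SE), 0.72-fold, with an unadjusted limma p of 4.75e-04 and an adjusted p of 0.177. It was the smallest p among the members, and adjusted over all probe sets it did not pass. Without the 2 crystallin-rich retinas the difference was -0.49. In whole retinas fewer cells of a type and less message per cell cannot be told apart.

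The brighter Crx probe set, 1418705_at, had log2 levels of 11.59, 11.60 and 11.69 in the 8-month retinas, against 11.65, 11.83 and 11.55 in the 3-month retinas. The ages overlapped, and the highest and the lowest value both belonged to 3-month retinas. Its log2 difference was -0.05 ± 0.10 (SE), with a 95% confidence interval from -0.28 to 0.18 (limma adjusted p = 0.837). That interval does not reach the -0.48 of the dimmer probe set, and the sign of the difference turned after median centring, at 0.04, and without 3-month retina 2, at 0.03. Without both crystallin-rich retinas it was -0.09. The annotation gives both probe sets the same source transcript and does not say where in it they lie.

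The disagreement was read within each retina, as the brighter minus the dimmer probe set, which cancels any factor that scales all Crx signal of an array. For Crx it was 2.88, 2.94 and 2.90 in the 8-month retinas, against 2.39, 2.64 and 2.37 in the 3-month retinas. The ages did not overlap, and the change was 0.44 on the log2 scale, or 0.40 without both crystallin-rich retinas (exact permutation p = 0.1, two-sided, the smallest that 3 against 3 allows; 0.267 adjusted over the 8 pairs of probe sets compared). The change of 0.44 restates the gap between the age differences of both Crx probe sets given above. With 3 against 3 the permutation test cannot decide whether the probe sets truly disagree, because its smallest p is 0.1. No share of same-gene pairs without overlap was computed over all tested probe sets. Which of the Crx probe sets reads the Crx message at large was not tested.

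**Figure D2:**
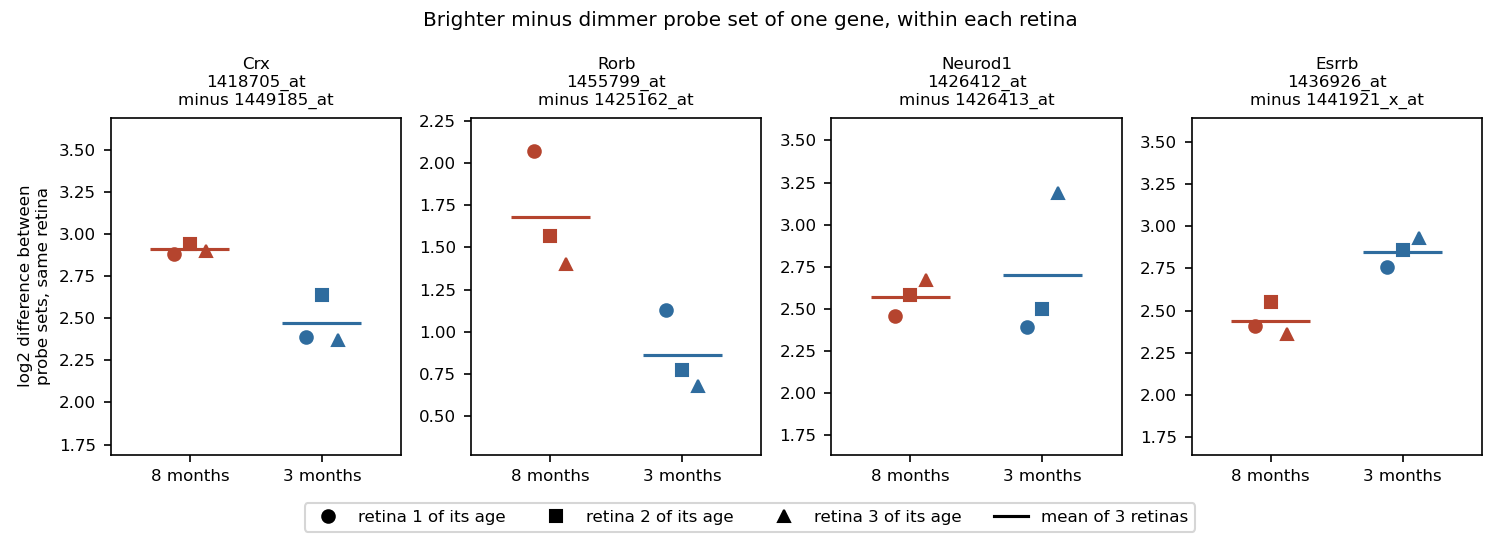
Log2 difference between the brighter and the dimmer probe set of the same gene in the same retina, for Crx, Rorb, Neurod1 and Esrrb at 8 and 3 months; symbols are retinas and lines are means of 3. The ages do not overlap for Crx, Rorb and Esrrb, with changes of 0.44, 0.82 and -0.41, and they overlap for Neurod1. The rest of the 8 pairs, all of Mef2c, are not drawn, and their ages overlap, with changes of 0.01, -0.18, 0.03 and 0.13.

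Nrl, the factor that makes a precursor a rod, was among the brightest probe sets on the array and close to level between ages. Its log2 levels were 12.23, 12.21 and 12.28 in the 8-month retinas, against 12.29, 12.37 and 12.15 in the 3-month retinas. The older retinas all lay inside the range of the younger ones. The log2 difference was -0.03 ± 0.09 (SE), with a 95% confidence interval from -0.24 to 0.17 (limma adjusted p = 0.878). Its sign turned after median centring of the arrays, at 0.05, and without 3-month retina 2, at 0.02. Without both crystallin-rich retinas it was -0.09.

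Otx2, which the photoreceptors share with bipolar cells and the pigment epithelium, had log2 levels of 11.66, 11.58 and 11.55 in the 8-month retinas, against 11.56, 11.54 and 11.40 in the 3-month retinas. The ages overlapped by a narrow margin, and the lowest value was that of 3-month retina 3. They differed by 0.09 ± 0.08 (log2, SE), with a 95% confidence interval from -0.10 to 0.29 (limma adjusted p = 0.61). The difference was 0.04 without 3-month retina 3, 0.01 without both crystallin-rich retinas and 0.18 after median centring. Pigment epithelium genes, 6 of 8 measured with Lrat and Pmel below the threshold, averaged 5.55 to 6.73 in 8-month retinas and 5.19 to 6.97 in 3-month retinas. Bipolar genes, 6 of 8 measured, averaged 8.57 to 8.75 in 8-month retinas and 8.59 to 8.77 in 3-month retinas. Neither list separated the ages, and their part in the Otx2 levels was not tested.

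Neurod1, needed in mice for photoreceptor survival and also used by amacrine cells, was read by 2 probe sets with the same source record. The brighter, 1426412_at, had log2 levels of 12.28, 12.39 and 12.42 in the 8-month retinas, against 12.23, 12.38 and 12.25 in the 3-month retinas. The ages overlapped, with a log2 difference of 0.08 ± 0.09 (SE; limma adjusted p = 0.678), or 0.10 without both crystallin-rich retinas. The dimmer, 1426413_at, had 9.83, 9.81 and 9.75 in the 8-month retinas, against 9.84, 9.88 and 9.05 in the 3-month retinas. There 5 retinas stood within a narrow band and 3-month retina 3, rich in crystallin transcripts, stood apart below it. Its log2 difference of 0.20 ± 0.22 (SE; limma adjusted p = 0.667) rested on that retina, turning to -0.07 without it and to -0.08 without both crystallin-rich retinas.

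Rorb, the receptor that acts upstream of Nrl and is also used by horizontal and amacrine cells, had 2 tested probe sets that pointed opposite ways. The brighter, 1455799_at, had log2 levels of 8.29, 8.21 and 7.91 in the 8-month retinas, against 7.99, 7.70 and 7.06 in the 3-month retinas. Older retinas stood higher with 1 crossing, since 8-month retina 3 lay below 3-month retina 1, and 3-month retina 3 was far below the rest. On average they were higher by 0.55 ± 0.23 (log2, SE), 1.47-fold, with an unadjusted limma p of 0.0509 and an adjusted p of 0.337. Without both crystallin-rich retinas it was 0.21, and without 3-month retina 3 alone 0.29.

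The dimmer Rorb probe set, 1425162_at, had log2 levels of 6.22, 6.64 and 6.51 in the 8-month retinas, against 6.85, 6.93 and 6.39 in the 3-month retinas. Here older retinas stood lower apart from 3-month retina 3, which was below 2 of them. This came to a log2 difference of -0.27 ± 0.17 (SE; limma adjusted p = 0.495). It was -0.435 without 3-month retina 3, with an unadjusted limma p of 0.0216 and an adjusted p of 0.413, and -0.32 without both crystallin-rich retinas. It was -0.15 without 8-month retina 1, -0.16 without 3-month retina 2 and -0.50 with eye side in the model. Within each retina the brighter minus the dimmer was 2.07, 1.57 and 1.40 at 8 months, against 1.13, 0.77 and 0.68 at 3 months, without overlap. The change of 0.82, or 0.53 without both crystallin-rich retinas, was the largest of the 8 pairs (exact permutation p = 0.1, two-sided; 0.267 adjusted over the 8). A further Rorb probe set, 1439862_at, stayed below the threshold, at 3.68 to 3.78 in 8-month retinas and 3.67 to 3.83 in 3-month retinas.

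Esrrb, which supports rod survival in mice, was lower at 8 months by its brightest probe set. The log2 levels of 1436926_at were 8.96, 9.07 and 9.17 in the 8-month retinas, against 9.49, 9.84 and 9.34 in the 3-month retinas. All older retinas lay below all younger ones, and the younger ones were spread more widely, with SDs of 0.11 and 0.26 at 8 and 3 months. The log2 difference of -0.49 ± 0.14 (SE), 0.71-fold, had an unadjusted limma p of 0.0102 and an adjusted p of 0.253, and it did not pass. It was -0.54 without both crystallin-rich retinas, and -0.35 without 3-month retina 2.

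Another Esrrb probe set did not show that difference. The suffix of 1441921_x_at marks probes that can match other transcripts, and its log2 levels were 6.55, 6.53 and 6.81 in the 8-month retinas, against 6.73, 6.97 and 6.41 in the 3-month retinas. The ages overlapped, and 3-month retina 3 was the lowest of the 6. The log2 difference was -0.07 ± 0.16 (SE; limma adjusted p = 0.845), a sign that turned after each of 3 normalizations, at 0.01, and without 3-month retina 2, at 0.06. It was -0.18 without both crystallin-rich retinas and -0.22 without 3-month retina 3. The brighter minus the dimmer was 2.41, 2.55 and 2.36 within the 8-month retinas, against 2.76, 2.86 and 2.93 within the 3-month retinas, a change of -0.41 without overlap, or -0.36 without both crystallin-rich retinas (exact permutation p = 0.1, two-sided; 0.267 adjusted over the 8 pairs). The remaining probe set, 1422986_at, lay below the threshold, between 2.62 and 2.70 in every retina.

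Mef2c was read by 5 tested probe sets, all with a mean above that of the younger retinas at 8 months. The strongest, 1421027_a_at, had log2 levels of 9.28, 9.12 and 8.95 in the 8-month retinas, against 8.85, 8.86 and 8.54 in the 3-month retinas. All older retinas lay above all younger ones, the highest being 8-month retina 1 and the lowest 3-month retina 3. The log2 difference of 0.36 ± 0.13 (SE), 1.29-fold, had an unadjusted limma p of 0.0239 and an adjusted p of 0.285. It was 0.18 without those 2 retinas, which are the crystallin-rich ones. The unadjusted p was above 0.05 when any of 3 retinas was left out, with a limma p of 0.0824 without 8-month retina 1, 0.071 without 3-month retina 3 and 0.0612 without 8-month retina 2.

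The other Mef2c probe sets had smaller differences. For 1451507_at the log2 levels were 8.76, 8.70 and 8.65 in the 8-month retinas, against 8.52, 8.62 and 8.53 in the 3-month retinas, without overlap and with a difference of 0.15 ± 0.08 (SE; limma adjusted p = 0.409), or 0.11 without both crystallin-rich retinas. The differences of 1424852_at, 1451506_at and 1421028_a_at were 0.18, 0.17 and 0.05, each with overlapping ages. Without both crystallin-rich retinas they were 0.09, 0.08 and -0.20, and that of 1451506_at was 0.10 without 8-month retina 1 alone. The probe set 1421028_a_at was dominated by 3-month retina 3, since its levels were 6.15, 6.10 and 6.14 in the 8-month retinas, against 6.43, 6.21 and 5.59 in 3-month retinas 1 to 3, and its difference turned to -0.19 without that retina. The annotation gives 1424852_at, 1451506_at and 1451507_at the same source record, so they are not separate evidence. The means over 4 of 6 microglial marker genes, with Cx3cr1 and P2ry12 below the threshold, were 6.62 to 6.76 in 8-month retinas and 6.12 to 6.29 in 3-month retinas. Those over 4 of 6 vascular markers, with Pecam1 and Cdh5 below the threshold, were 5.11 to 5.14 in 8-month retinas and 5.26 to 5.52 in 3-month retinas. Both list means separated the ages, in opposite directions. Single genes did so less evenly, with 3 of the 4 microglial genes higher without overlap and Csf1r overlapping at 0.08. Of the 4 vascular genes 3 were lower and 1 higher, and only 1 was lower without overlap. Over all tested probe sets 6.89% were higher and 14.9% lower without overlap. No such share was computed for list means, and the part of both lists in the Mef2c levels was not tested.

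**Figure D3:**
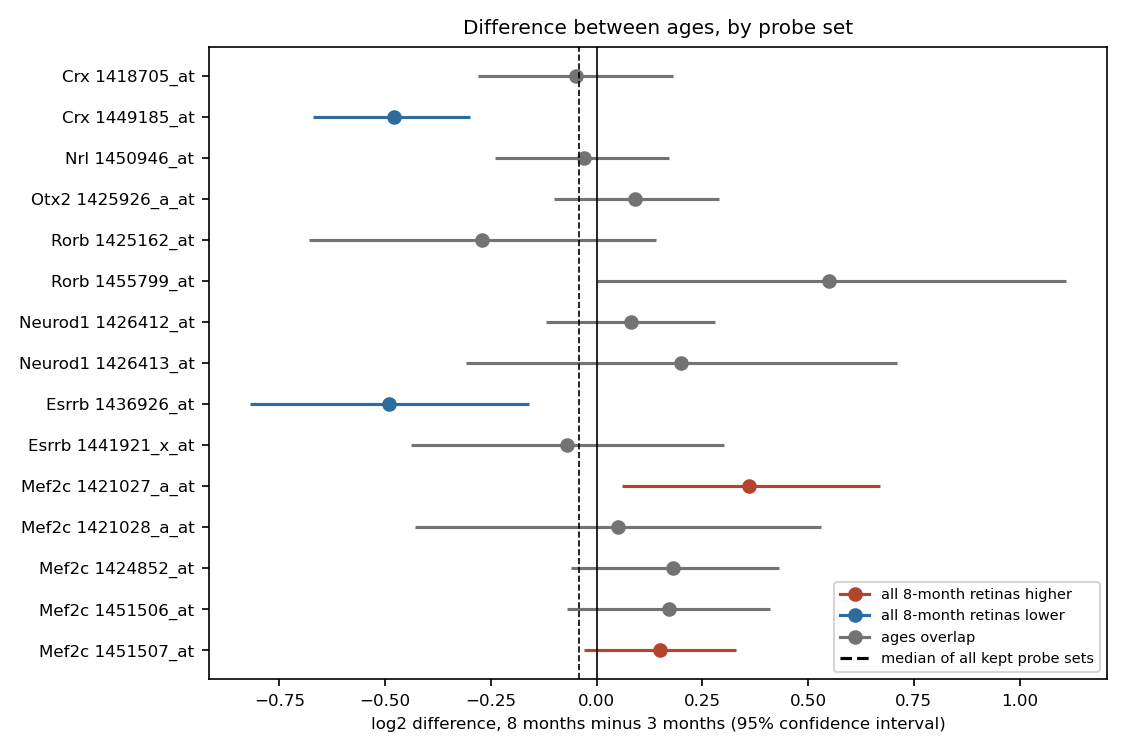
Log2 difference between ages, 8 months minus 3 months, for each tested member probe set, with its 95% limma confidence interval; the dashed line is the median of all tested probe sets, -0.041. The intervals of Crx 1449185_at and Esrrb 1436926_at lie below 0 and that of Mef2c 1421027_a_at above it, while the other 12 reach 0 or cross it.

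The cone factors Thrb and Rxrg were not measurable here. Rxrg had log2 levels of 3.05, 3.17 and 3.06 in the 8-month retinas, against 3.01, 3.04 and 3.05 in the 3-month retinas. Thrb had 2.77, 2.69 and 2.55 in the 8-month retinas, against 2.55, 2.56 and 2.56 in the 3-month retinas. All of these lay below the threshold of 4, near the floor to which the authors' background model presses weak signals. Each gene had 1 probe set, so nothing is said of a difference in either.

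The retinas were not interchangeable across the members. Among the 15 tested probe sets, 3-month retina 3 was the lowest of the 6 in 9 and never the highest. Over all tested probe sets that retina was the lowest in 18.0% and the highest in 21.2%. Its median deviation from the mean of the 6 arrays was -0.15 over the member probe sets and 0.011 over all tested ones. The highest value belonged to 8-month retina 1 in 6 and to 3-month retina 2 in 6, against 13.1% and 14.5% of all tested probe sets. Without 3-month retina 3 the median log2 difference of the members was -0.065, and without both crystallin-rich retinas -0.08, so the sign of the members' median rested on that 1 retina.

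Spread within an age also differed among the members. The brighter Neurod1, Nrl and Otx2 probe sets had pooled within-age SDs of 0.08, below the median of 0.14 over all tested probe sets. The brighter Rorb, the dimmer Neurod1 and the Mef2c probe set 1421028_a_at had 0.36, 0.33 and 0.31, larger than in 96.4%, 94.7% and 93.1% of tested probe sets. Differences of these 3 are therefore estimated less closely than those of Nrl, Otx2 or Crx.

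Genes that these factors control were read from lists, with 1 probe set per gene, the brightest tested one. The limma adjusted p called 0 genes in each list, against 0.00891% of 11219 genes. Over those genes 3.58% were higher and 11.5% were lower at 8 months at an unadjusted limma p under 0.05, and the median log2 difference was -0.058.

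Rod genes, targets of CRX and NRL, had 18 of 20 members measured. At the unadjusted p 5 were lower and 0 higher, and the median log2 difference was -0.10. Prph2, which shapes the rim of outer segment discs, had log2 levels of 10.74, 10.97 and 11.25 in the 8-month retinas, against 11.49, 11.74 and 11.32 in the 3-month retinas. All older retinas were lower, by 0.53 on average (limma adjusted p = 0.263). Pde6b, a catalytic subunit of the rod phosphodiesterase, differed by -0.20 (limma adjusted p = 0.304), and the higher genes of smallest p were the ciliary gene Rp1 at 0.24 and the transducin-binding gene Pdc at 0.18, with adjusted p of 0.378 and 0.428. After median centring the balance turned, with 1 lower and 3 higher. It turned over all tested probe sets as well, from 10.3% lower and 4.63% higher to 4.77% lower and 10.2% higher. The count of 5 lower was also 1 when eye side or the replicate block entered the model, 2 without both crystallin-rich retinas, and 1 to 3 when any single retina other than 3-month retina 3 was left out. The count of 0 higher was 2 with the intensity trend and without 3-month retina 2, and 1 with no filter. The lower share over all tested probe sets was 6.4% with eye side, 8.54% with the replicate block and 5.0% without both crystallin-rich retinas. With single retinas left out that share ranged from 6.37% to 12.6%, so these counts are not a result about rod genes alone.

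Cone genes had 11 of 12 members measured, with Cnga3 not matched. At the unadjusted p 3 were lower and 1 higher, and the median log2 difference was -0.04. Gnat2, the cone transducin, had log2 levels of 9.40, 9.41 and 9.49 in the 8-month retinas, against 9.97, 9.76 and 9.88 in the 3-month retinas. All older retinas were lower, with a difference of -0.44 ± 0.09 (SE; limma adjusted p = 0.186). Opn1mw, the medium-wavelength opsin, differed by -0.48 ± 0.10 and Pde6c, the cone phosphodiesterase, by 0.34 ± 0.12 (SE), with limma adjusted p of 0.207 and 0.289. Ccdc136, the next higher gene, was nearly level at 0.06 (limma adjusted p = 0.786). The count of 3 lower stayed at 3 under every alternative. The 1 higher gene was lost, leaving 0, when both crystallin-rich retinas, or any single retina other than those numbered 2, were left out, and with the replicate block. The higher share over all tested probe sets was 2.47% without both crystallin-rich retinas and 4.46% with the replicate block, against 4.63% as reported.

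Partners and regulators of the factors had 13 of 16 members measured, with Tbx2, Onecut1 and Sall3 below the threshold. At the unadjusted p 1 was lower and 0 higher, and the median log2 difference was -0.15, or -0.055 where all tested probe sets of a gene were averaged. The 1 was Prdm1, which in mouse precursors holds back the bipolar fate, with log2 levels of 6.12, 6.44 and 6.00 in the 8-month retinas, against 6.80, 6.70 and 6.44 in the 3-month retinas. The ages met at 6.44 to the rounding shown, and the difference was -0.46 ± 0.15 (SE; limma adjusted p = 0.269). Samd7, a repressor of non-rod genes in mouse rods, differed by -0.18, and the zinc finger gene Sp4 and the orphan receptor gene Nr2f1 by 0.13 and 0.16, with limma adjusted p of 0.378, 0.555 and 0.588. The count of 1 was 0 when 8-month retina 1 or 8-month retina 3 was left out and with eye side in the model, 2 without 3-month retina 2 and with the replicate block, and 3 with no filter. The count of 0 higher was 1 without 8-month retina 1 and without 3-month retina 2. Over all tested probe sets the lower share moved too, from 10.3% to 6.4% with eye side, 12.6% without 3-month retina 2 and 5.91% with no filter.

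Family relatives of the factors had 9 of 13 members measured, with Otx1, Neurod6 and Mef2b below the threshold. At the unadjusted p 1 was lower and 1 higher, and the median log2 difference was -0.04. Neurod4, a relative of Neurod1 that is active in bipolar and amacrine precursors, had log2 levels of 12.59, 12.58 and 12.70 in the 8-month retinas, against 12.23, 12.54 and 12.12 in the 3-month retinas. The older retinas stood above the younger ones, 3-month retina 2 coming close, with a difference of 0.32 ± 0.12 (SE; limma adjusted p = 0.305), read by a less specific probe set. Rxra, a dimer partner of many nuclear receptors, differed by -0.19 ± 0.08 without overlap (limma adjusted p = 0.323), and Rora and Esrra differed by -0.24 and 0.25 with overlap. The higher gene was lost when any single retina other than 3-month retina 2 was left out, and the lower one when any of 8-month retinas 1 and 3 and 3-month retinas 1 and 3 was, each count then being 0. Both were also 0 without both crystallin-rich retinas, with eye side in the model and with the replicate block, and the lower one was 0 after each of the 3 normalizations. Over all tested probe sets the lower share was 6.69%, 4.77% and 6.32% after quantile normalization, median centring and cyclic loess, against 10.3% as reported.

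**Figure D4:**
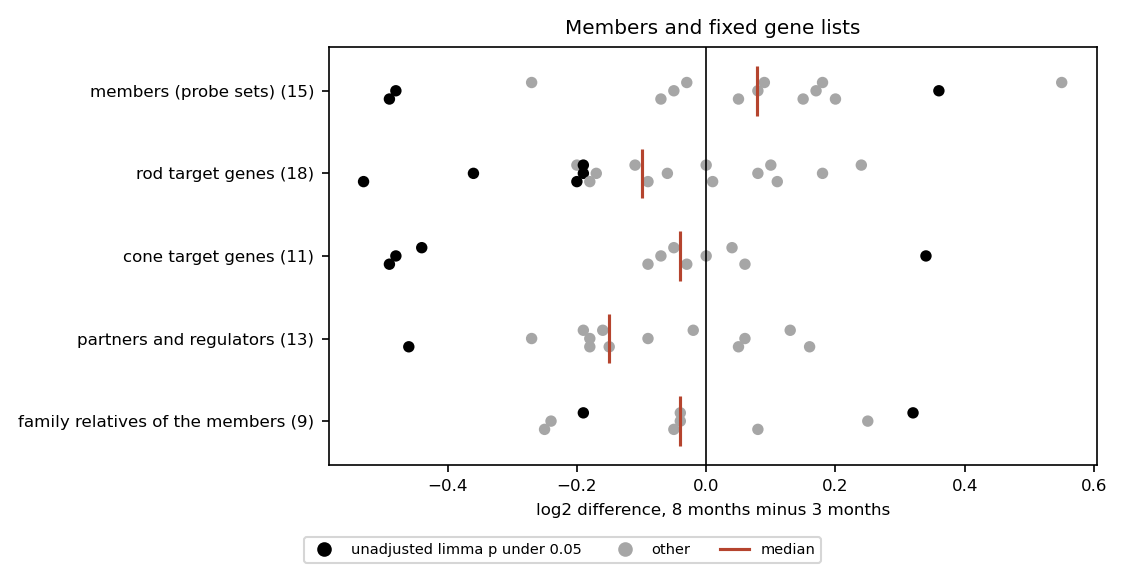
Log2 difference between ages, 8 months minus 3 months, for the 15 member probe sets and for the genes of 4 lists, 1 probe set per gene; black points have an unadjusted limma p under 0.05, grey points do not, and red lines are medians. The members' median is 0.078, and those of the lists are -0.10, -0.04, -0.15 and -0.04 from the top down.

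The genes whose levels followed a member most closely over the 6 retinas were found by Pearson correlation with its brightest probe set, as a description. For Crx 1418705_at they were Tlcd5, H2-Ke6 and Tubgcp3, at 0.994, 0.983 and 0.982, and for Nrl they were Cox6a2, Stub1 and 1300002E11Rik, at 0.993, 0.992 and 0.99. Of 11218 genes compared, 93 exceeded 0.9 for Crx and 85 for Nrl, over 6 values that share arrays. How many would do so by chance with so few values was not computed, so no link between genes is read from these counts. The age differences of the 6 named genes lay between -0.11 and -0.02.

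Other cell types that the sample holds were read from marker lists as means of log2 levels. Amacrine markers, 6 of 7 measured with Chat below the threshold, lay between 9.21 and 9.36 in 8-month retinas and 9.25 and 9.35 in 3-month retinas. Horizontal cell markers, 5 of 5 measured, lay between 8.05 and 8.12 in 8-month retinas and 7.98 and 8.13 in 3-month retinas. Müller glia markers, 6 of 6 measured, lay between 11.04 and 11.20 in 8-month retinas and 10.92 and 11.06 in 3-month retinas, and ganglion cell markers, 6 of 6 measured, between 8.67 and 8.68 in 8-month retinas and 8.69 and 8.85 in 3-month retinas. Ganglion cell means thus did not overlap between ages, by a narrow margin. Of the 6 ganglion cell genes 4 were lower and 2 higher. Only 1 was lower without overlap, where 14.9% of all tested probe sets were. The part of any of these lists in the members' levels was not tested.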

How the data were processed

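Total RNA of single retinas was amplified, biotin-labelled and hybridised to 1 array each, per the labels' protocols. The authors deposited log2 values per probe set, which per the submitters' processing notes came from GCRMA 1.1.0 and R 1.9.0, with options not given in the sources used here. That method pulls dim signals to a floor and can shrink their differences. Of 45101 probe sets, 64 Affymetrix controls were left out, and 20973, or 46.6%, reached 4 in at least 3 arrays and were tested. The age comparison used limma 3.58.1 (lmFit, eBayes; R 4.3.3), two-sided, Benjamini-Hochberg adjusted over all tested probe sets at 0.05, with no covariate. Values are log2, and a fold is a back-transformed difference. The model was also run on simulated data with independent noise, in which no array deviated as a whole. That run does not show how the model behaves with the crystallin-rich retinas. With 3 against 3, the exact permutation test reaches a two-sided p of 0.1 at best, and the number of arrays limits the precision. Named were every member, per list the 2 genes of smallest p in each direction, and the 3 genes most correlated with Crx and with Nrl. Members, lists and the lens alternative were chosen with earlier results of these data known. Promoters are RefSeq sequences of GRCm38.p6, matched by symbol for all 10 members. Alternatives were 2 other filters, 3 normalizations, eye side, a replicate block, an intensity trend, each array left out in turn, and both crystallin-rich retinas left out.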

Additional observations from a re-analysis of the deposited data

How the results depend on the processing

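Under 15 alternatives, 0 of 225 combinations of a member probe set and an alternative passed the adjusted threshold, and 212 kept their direction. Crx 1449185_at and Esrrb 1436926_at kept an unadjusted limma p under 0.05 in all 15, with log2 differences from -0.519 to -0.399 and from -0.597 to -0.345, and limma adjusted p from 0.1 to 0.664 and from 0.164 to 0.664. Direction turned at least once for 6 member probe sets, and the cause was not tested. After median centring the difference was 0.036 for Crx 1418705_at, 0.051 for Nrl 1450946_at and 0.011 for Esrrb 1441921_x_at, the last being 0.013 after quantile normalization and 0.012 after cyclic loess. Neurod1 1426412_at was -0.004 with eye side as a covariate. With both crystallin-rich retinas left out Neurod1 1426413_at was -0.08 and Mef2c 1421028_a_at was -0.201. Leaving out single retinas gave -0.112 to 0.03 for Crx 1418705_at, -0.092 to 0.019 for Nrl, -0.065 to 0.351 for Neurod1 1426413_at, -0.22 to 0.063 for Esrrb 1441921_x_at and -0.193 to 0.23 for Mef2c 1421028_a_at, the low ends all without 3-month retina 3. The members' median was -0.08 with both crystallin-rich retinas left out and ranged from -0.065 to 0.126 with single retinas left out. The count of members with an unadjusted p under 0.05, 3 as reported, was 7 after median centring (46.7%, against 15.0% of all probe sets) and 5 after cyclic loess (33.3%, against 13.3%), and 2 to 5 with single retinas left out (13.3% to 33.3%, against 9.21% to 19.6%).

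Over all probe sets, those higher and lower at an unadjusted p under 0.05 were 10.2% and 4.77% after median centring, 7.02% and 6.32% after cyclic loess and 6.62% and 6.69% after quantile normalization, against 4.63% and 10.3% as reported. Limma called 2 with the filter at 6 and after each normalization (quantile, median centring, cyclic loess). It called 0 with no filter, with eye side as a covariate, with the replicate block, with any single retina left out and with both crystallin-rich retinas left out. The number with an unadjusted p under 0.05, 3126 as reported, was 2059 with eye side, 1567 with both crystallin-rich retinas left out and 1932 to 4109 with single retinas left out. The replicate numbers of the labels were not used as pairs in the main fit. Deviations of same-numbered retinas from the mean of their age correlated at -0.141, 0.064 and -0.283. Those of differently numbered retinas correlated at -0.289 to 0.383. Deviations from a mean of 3 are tied to each other, so this check cannot exclude a pairing. With the replicate block 4 members had an unadjusted limma p under 0.05. Eye side and age overlap in part, as right eyes occur only at 8 months. Where 1 array of an age was left out, the spread came from the remaining arrays of both ages.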
